A study of Mus musculus with 4 samples.

Results

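Hemoglobin and erythroid genes were examined in sarcomas of mice that carry a p53 mutation, with and without arsenic trioxide. The genes were named by symbol: the adult alpha globins Hba-a1 and Hba-a2, the adult beta globins Hbb-bs and Hbb-bt, and the red cell genes Alas2, Slc4a1, Gata1, Klf1 and Ahsp. Of these 9 genes, 8 were found among the 56691 genes of the table, and Ahsp was not analysed here. All 8 passed the filter on low counts, which kept 17188 genes.

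RNA-seq was performed on 4 spontaneous sarcomas of heterozygous W/+ mice on a C57BL/6N background, made by CRISPR/Cas9 knock-in. Both groups carried the same allele, which the labels write as p53R282W/+ after the human residue and the study writes as p53-R279W. Sarcomas ATO 1 and ATO 2 came from mice given arsenic trioxide (ATO) at 35 mg per L in their drinking water, begun on day 90 of age and kept up until death. Sarcomas PBS 1 and PBS 2 came from mice whose treatment the labels give as PBS, the untreated group of the study. Ages at death are not given for these 4 sarcomas, nor is the type of sarcoma, although angiosarcoma, soft tissue sarcoma and osteosarcoma all occurred in these mice. Nothing states that each sarcoma came from its own mouse, so p-values measure the spread between these samples only.

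Hemoglobin carries oxygen and joins a pair of alpha chains with a pair of beta chains, each holding a heme. The globin genes are transcribed in nucleated erythroblasts of the bone marrow and, in mice, of the spleen, under the transcription factors GATA1 and KLF1. Alas2 encodes the erythroid enzyme of the first step of heme synthesis, and Slc4a1 encodes band 3, the anion exchanger of the red cell membrane. Reticulocytes and young red cells in blood have no nucleus and still hold globin mRNA. Any tissue that contains blood can therefore give globin reads.

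Hba-a1 and Hba-a2 are near copies, as are Hbb-bs and Hbb-bt, so how far reads can tell them apart comes before their values. In GRCm38 (GENCODE M21) Hba-a1 lies at chr11:32283511-32284465 and Hba-a2 at chr11:32296489-32297298, both on the plus strand. Hbb-bs lies at chr7:103826534-103828096 and Hbb-bt at chr7:103812524-103813996, both on the minus strand. Counted from the A of the start codon, the 429 coding bases of the alpha genes differ at C381T (Hba-a1 to Hba-a2) and the 444 coding bases of the beta genes differ at C417T (Hbb-bs to Hbb-bt). The stretches around these single differences, all coding sequence of the last exon, are shown with the differing base in capitals.
Hba-a1 (chr11:32284313-32284373, plus strand): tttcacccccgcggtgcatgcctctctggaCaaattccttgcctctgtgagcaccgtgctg
Hba-a2 (chr11:32297130-32297190, plus strand): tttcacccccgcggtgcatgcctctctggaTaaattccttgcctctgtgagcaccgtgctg
Hbb-bs (chr7:103826665-103826722, minus strand): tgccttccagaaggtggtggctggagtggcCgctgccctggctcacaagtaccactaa
Hbb-bt (chr7:103812656-103812713, minus strand): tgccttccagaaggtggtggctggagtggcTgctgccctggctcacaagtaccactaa
Of the stretches of 150 bases, the read length, in each transcript, 266 are identical between the alpha genes, which is 48.4% of those of Hba-a1 and 65.7% of those of Hba-a2. The beta genes share 281, which is 58.7% of those of Hbb-bs and 50.7% of those of Hbb-bt. The reads were paired-end, and these shares do not take the mate of a read into account. How reads that fit both copies were counted is not given in the sources used here, so the split between the copies of a pair is uncertain.

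The other red cell genes had no such copy. Slc4a1 (chr11:102348824-102366203, minus strand), Gata1 (chrX:7959260-7978071, minus strand) and Klf1 (chr8:84901928-84905291, plus strand) shared 0 stretches of that length with another gene. Alas2 (chrX:150547375-150570638, plus strand) overlaps exons of Apex2 on the opposite strand, with which it shared 8.63% of its stretches. Whether counting used strand is not stated in the sources used here, so reads of the overlap could not be assigned to one of them with certainty. Apex2, a DNA repair enzyme gene, had 226 counts in PBS 1, 343 in PBS 2, 350 in ATO 1 and 174 in ATO 2, and so varied far less than Alas2.

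Promoter sequence was available from RefSeq (GRCm38.p6) for 7 of the 8 genes, all but Slc4a1. The starts annotated in RefSeq lie inside the GENCODE gene spans given above, so the promoter stretches overlap those spans. The 250 bases before the RefSeq start were searched on both strands. The patterns were AGATAA and TGATAA, letters that GATA factors bind, and CCNCNCCC, a pattern of the CACC boxes that KLF1 binds. The first of these, as AGATAA or TGATAA, occurred in 5 of the 7 promoters and in 16.6% of 32851 promoters of the same length. CCNCNCCC occurred in 4 of the 7 and in 45.9% of all promoters. The promoters of Hba-a1, both beta globins and Alas2, whose genes had the same order of levels across the sarcomas, are shown beside that of Klf1, whose order differed, and capitals mark the matches.
Hba-a1 (chr11:32283422-32283671, plus strand): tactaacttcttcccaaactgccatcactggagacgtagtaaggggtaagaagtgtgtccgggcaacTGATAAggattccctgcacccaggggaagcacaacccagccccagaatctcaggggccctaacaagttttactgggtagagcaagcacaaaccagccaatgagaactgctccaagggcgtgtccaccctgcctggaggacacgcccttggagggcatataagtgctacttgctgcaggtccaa
Hbb-bs (chr7:103827929-103828178, minus strand): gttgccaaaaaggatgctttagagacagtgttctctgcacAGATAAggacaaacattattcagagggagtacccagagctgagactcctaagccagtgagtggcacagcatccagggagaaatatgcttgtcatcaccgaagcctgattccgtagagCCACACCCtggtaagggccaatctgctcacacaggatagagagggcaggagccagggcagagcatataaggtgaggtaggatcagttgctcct
Hbb-bt (chr7:103813924-103814173, minus strand): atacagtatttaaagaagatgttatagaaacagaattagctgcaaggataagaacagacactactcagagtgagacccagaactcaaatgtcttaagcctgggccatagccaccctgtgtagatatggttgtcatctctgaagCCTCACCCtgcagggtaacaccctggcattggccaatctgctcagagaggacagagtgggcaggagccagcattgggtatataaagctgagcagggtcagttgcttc
Alas2 (chrX:150547167-150547416, plus strand): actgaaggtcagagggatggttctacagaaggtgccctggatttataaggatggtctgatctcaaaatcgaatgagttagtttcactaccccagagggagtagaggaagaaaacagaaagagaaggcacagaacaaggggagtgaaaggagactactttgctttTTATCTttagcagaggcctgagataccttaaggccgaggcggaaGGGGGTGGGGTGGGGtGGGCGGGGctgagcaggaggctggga
Klf1 (chr8:84901732-84901981, plus strand): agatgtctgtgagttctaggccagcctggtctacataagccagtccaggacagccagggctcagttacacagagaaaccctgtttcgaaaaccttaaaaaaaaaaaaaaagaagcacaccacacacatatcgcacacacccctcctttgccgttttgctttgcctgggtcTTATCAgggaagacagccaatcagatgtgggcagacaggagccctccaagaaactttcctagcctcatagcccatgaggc
The match in Hba-a1 began 183 bases before the start and recurred in Hba-a2, whose promoter shares a run of 247 bases with it. The beta globin promoters shared at most 14 bases in a row, and only Hbb-bs among them held AGATAA, beginning 210 bases before the start. In Alas2 the matches lay on the opposite strand, with 4 of CCNCNCCC within 42 bases of the start, of which 3 overlapped. Klf1 held 1 match, on the opposite strand, beginning 80 bases before the start, and Gata1 held 3 matches of CCNCNCCC only. Such matches describe the letters and do not show binding.

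The total counts per sarcoma ranged from 15259695 to 18134000, so that a floor of 3 counts corresponds to 0.165 to 0.197 CPM (the count scaled to the total of the sarcoma). The mitochondrial share of counts was 14.7% in ATO 2 and 1.98% to 2.59% elsewhere. Levels are given as FPKM, the count scaled to the exon length of the gene and to the total count, which allows genes to be compared. Intervals are exact 95% intervals and cover counting error only.

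The globins were present in all 4 sarcomas, and their levels ranged widely within each group. Together the 4 adult globins took 0.0227% of all counts in PBS 1, 1.51% in PBS 2, 0.836% in ATO 1 and 0.0859% in ATO 2. One sarcoma of each treatment was thus rich in globin mRNA and the other poor. In bulk samples, fewer cells of a type and less RNA per cell cannot be told apart.

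Hbb-bs, the major adult beta globin of the table, had the highest level of the 8 genes in every sarcoma, with 173.41 FPKM in PBS 1, 11236.29 in PBS 2, 5478.96 in ATO 1 and 672.98 in ATO 2. Hba-a1 stood at 90.61 FPKM in PBS 1, 6247.38 in PBS 2, 4055.4 in ATO 1 and 312.81 in ATO 2. For both genes PBS 2 was highest and PBS 1 lowest, with both ATO sarcomas between them, so the groups overlapped. The level in PBS 2 was 64.8 times that in PBS 1 for Hbb-bs and 68.9 times for Hba-a1.

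The lesser copies followed the same order. Hbb-bt had 19.95 FPKM in PBS 1, 1294.83 in PBS 2, 845.37 in ATO 1 and 82.59 in ATO 2. Hba-a2 had 9.7 FPKM in PBS 1, 725.45 in PBS 2, 393.29 in ATO 1 and 44.41 in ATO 2. Both thus repeated the ranking of PBS 2, ATO 1, ATO 2 and PBS 1, although the split between the copies of a pair is uncertain, as given above.

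Alas2, which supplies heme to hemoglobin, kept this order as well, at a lower level. It had 4.43 FPKM in PBS 1, 322.98 in PBS 2, 140.03 in ATO 1 and 14.48 in ATO 2. PBS 2 stood 72.9 times above PBS 1, close to the 64.8 to 74.8 times of the globins, while ATO 1 stood 9.67 times above ATO 2, against 8.14 to 13 times for the globins.

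Slc4a1, the band 3 gene, had a different order, with its highest level in ATO 1. It had 0.3 FPKM in PBS 1, 21.42 in PBS 2, 214.36 in ATO 1 and 0.16 in ATO 2. ATO 1 exceeded PBS 2 by 10 times, where the globins were higher in PBS 2. The low values rested on 26 counts in PBS 1 (17 to 38.1) and 12 in ATO 2 (6.2 to 21), intervals that overlap.

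The erythroid transcription factors were also highest in ATO 1. Gata1, the GATA factor needed for erythroblast and megakaryocyte maturation, had 0.05 FPKM in PBS 1, 1.67 in PBS 2, 20.58 in ATO 1 and 0.03 in ATO 2. Klf1, an activator of adult beta globin, had 0.11 FPKM in PBS 1, 0.47 in PBS 2, 26.57 in ATO 1 and 0.13 in ATO 2. ATO 1 exceeded PBS 2 by 12.3 times for Gata1 and 56.5 times for Klf1, and the other ATO sarcoma was as low as PBS 1.

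At those low levels the counts were few. Gata1 had 2 counts in PBS 1 (0.242 to 7.22), 73 in PBS 2 (57.2 to 91.8), 910 in ATO 1 (852 to 971) and 1 in ATO 2 (0.0253 to 5.57). Klf1 had 3 counts in PBS 1 and 3 in ATO 2 (0.619 to 8.77 for each), 13 in PBS 2 (6.92 to 22.2) and 739 in ATO 1 (687 to 794). PBS 1 and ATO 2 did not differ beyond counting error for either gene, and for Klf1 the interval of PBS 2 also overlapped theirs.

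**Figure D1:**
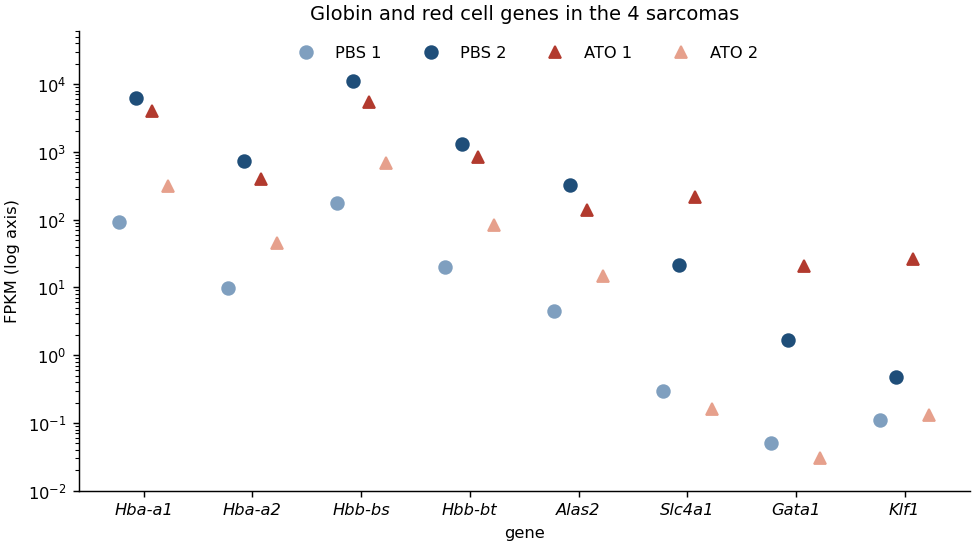
FPKM (log axis) of the 8 genes in each of the 4 sarcomas, circles for PBS and triangles for ATO, with 1 point per sarcoma and gene. For the globins and Alas2 the dark circle (PBS 2) is highest, at 322.98 FPKM for Alas2, and for Slc4a1, Gata1 and Klf1 the dark triangle (ATO 1) is highest, at 214.36, 20.58 and 26.57 FPKM.

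Counts were then set against those of Hbb-bs in the same sarcoma, which takes out the total count and its scaling. Per 1000 counts of Hbb-bs, Alas2 had 80 counts in PBS 1 (68.5 to 92.9), 89.9 in PBS 2 (88.4 to 91.5), 80 in ATO 1 (77.9 to 82.1) and 67.3 in ATO 2 (61.5 to 73.5). Its ratio therefore spanned 1.34 times while its FPKM in PBS 2 was 72.9 times that in PBS 1. Hba-a1 spanned 1.59 times, with 552, 588, 783 and 491 counts per 1000 in PBS 1, PBS 2, ATO 1 and ATO 2, and Hbb-bt and Hba-a2 spanned 1.34 and 1.28 times.

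The ratios of the other 3 genes were not steady. Slc4a1 had 11.2 counts per 1000 of Hbb-bs in PBS 1 (7.29 to 16.4), 12.1 in PBS 2 (11.6 to 12.7), 249 in ATO 1 (245 to 253) and 1.52 in ATO 2 (0.786 to 2.66). The Slc4a1 ratios of the PBS sarcomas thus did not differ beyond counting error although their globin levels lay far apart, while ATO 1 lay above them and ATO 2 below. Gata1 had 0.86 per 1000 in PBS 1 (0.104 to 3.11), 0.471 in PBS 2 (0.369 to 0.592), 11.9 in ATO 1 (11.2 to 12.7) and 0.127 in ATO 2 (0.00321 to 0.707).

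For Klf1 the ratio was 1.29 per 1000 in PBS 1 (0.266 to 3.77), 0.0838 in PBS 2 (0.0446 to 0.143), 9.68 in ATO 1 (9 to 10.4) and 0.38 in ATO 2 (0.0784 to 1.11). ATO 1 was highest for all 3 genes, and its intervals did not overlap those of another sarcoma. PBS 2, the sarcoma richest in globin, had the lowest Klf1 ratio, although its interval overlapped that of ATO 2. The ratio spanned 164 times for Slc4a1, 93.7 times for Gata1 and 116 times for Klf1.

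**Figure D2:**
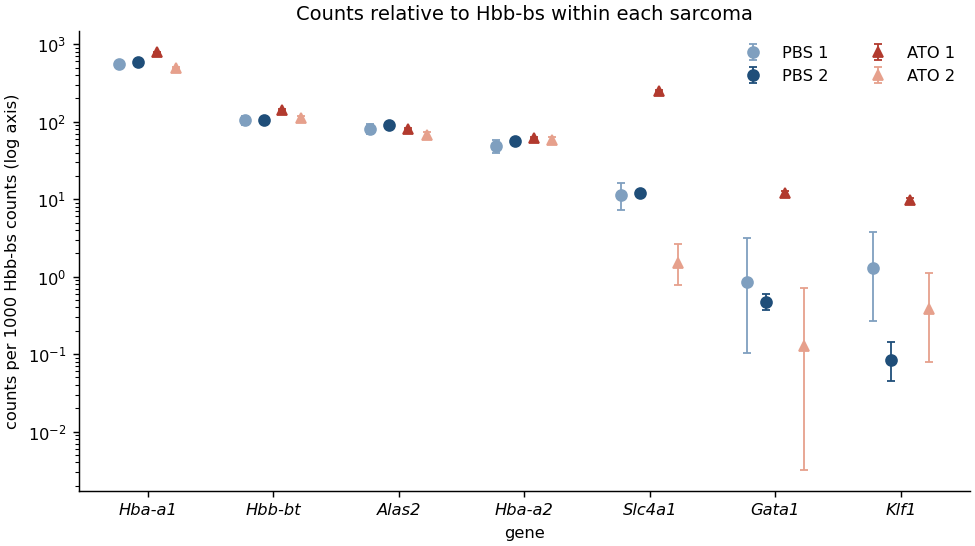
Counts of 7 genes per 1000 counts of Hbb-bs in the same sarcoma (log axis), with bars for the exact 95% interval of counting error. The points of Hba-a1, Hbb-bt, Alas2 and Hba-a2 lie close together, with spans of 1.28 to 1.59 times, while ATO 1 stands above the other sarcomas for Slc4a1 (249), Gata1 (11.9) and Klf1 (9.68).

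The balance of the globin chains had a narrow range beside that of the levels. Summed alpha over summed beta FPKM was 0.519 in PBS 1, 0.556 in PBS 2, 0.703 in ATO 1 and 0.473 in ATO 2. Hba-a2 took 8.08% of the alpha counts in PBS 1 (6.71 to 9.64), 8.71% in PBS 2 (8.53 to 8.88), 7.38% in ATO 1 (7.18 to 7.58) and 10.4% in ATO 2 (9.55 to 11.4). Hbb-bt took 9.53% of the beta counts in PBS 1 (8.42 to 10.7), 9.54% in PBS 2 (9.4 to 9.68), 12.4% in ATO 1 (12.2 to 12.6) and 10.1% in ATO 2 (9.48 to 10.7). For the alpha to beta ratio ATO 1 lay above both PBS sarcomas and ATO 2 below them, and the share of Hbb-bt was highest in ATO 1.

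Other globins were near absent except in PBS 2 and ATO 1. The embryonic genes Hba-x, Hbb-y and Hbb-bh1 had 2, 1 and 3 counts in ATO 1 and 0 in the other sarcomas, and Hbb-bh2 had 0 in all. Hbq1b, a theta globin gene, had 0 counts in PBS 1, 48 in PBS 2, 182 in ATO 1 and 0 in ATO 2, so its highest level was in ATO 1 as for Slc4a1. Its copy Hbq1a had 0, 7, 13 and 3 counts.

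The effect of ATO on these genes was tested with edgeR's quasi-likelihood F-test on the counts, as 2 against 2 sarcomas. Across all genes 0 of 17188 (0%) passed a Benjamini-Hochberg adjusted p of 0.05, and 1463 (8.51%) had an unadjusted p under 0.05. Of the 8 erythroid genes 0 passed either threshold. Fitted changes pointed to a higher level in ATO for 3 of the 8 genes, against 49.2% of all genes, and for 8 of 8 in limma fits to log2(FPKM + 1) and to log2(FPKM + 0.1) and in edgeR with a replicate block.

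For the globins and Alas2 the fitted change was small beside its error, and its direction turned to higher in ATO in those 3 alternatives. TMM-normalized Hbb-bs was 3970 ± 5440 CPM in PBS and 2410 ± 2520 in ATO (SD, n = 2 each), and its log2 fold change was -0.72 (SE 1.94, adjusted p = 0.941 in edgeR). Hba-a1 was 2330 ± 3200 CPM in PBS and 1800 ± 2100 in ATO, and its log2 fold change was -0.38 (SE 2, adjusted p = 0.97 in edgeR). In each group the SD exceeded the mean, so the spread between sarcomas was larger than the difference between treatments. Hba-a2, Hbb-bt and Alas2 had log2 fold changes of -0.58, -0.34 and -0.92 with SE of 1.88, 1.88 and 1.91.

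For the other red cell genes the fitted change was higher in ATO and rested on ATO 1. Slc4a1 was 48.1 ± 66.1 CPM in PBS and 523 ± 738 in ATO, and its log2 fold change was 3.44 (SE 3.03, adjusted p = 0.782 in edgeR). Gata1 had a log2 fold change of 3.72 (SE 2.67, adjusted p = 0.728 in edgeR), from 1.89 ± 2.53 CPM in PBS and 25 ± 35.3 in ATO. Without ATO 1 these values were -5.64 for Slc4a1 and -4.45 for Gata1, the opposite direction.

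Klf1 came nearest to a call, with 0.406 ± 0.352 CPM in PBS and 20.4 ± 28.5 in ATO, and its log2 fold change was 5.62 (SE 2.37, unadjusted p = 0.0669 and adjusted p = 0.597 in edgeR). DESeq2 called it, with a log2 fold change of 5.67 and an adjusted p of 0.0208, among 753 genes called of 30859 with a p-value. The adjusted p of Klf1 lay between 0.0589 and 0.92 in the other alternatives that kept all 4 sarcomas. Without ATO 1 its log2 fold change was -0.76. In the ATO group 739 of its counts came from ATO 1 and 3 from ATO 2.

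Where every ATO sarcoma lay above every PBS sarcoma a gene counted as separated upward, which held for 19.7% of all genes, and 20.2% were separated downward. Of the 8 erythroid genes 0 were separated in either direction. The median log2 fold change over the 8 was -0.36, against -0.016 over all genes tested. Without PBS 2 all 8 pointed higher in ATO, with a median of 4.71, and without ATO 1 all 8 pointed lower, with a median of -2.79.

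**Figure D3:**
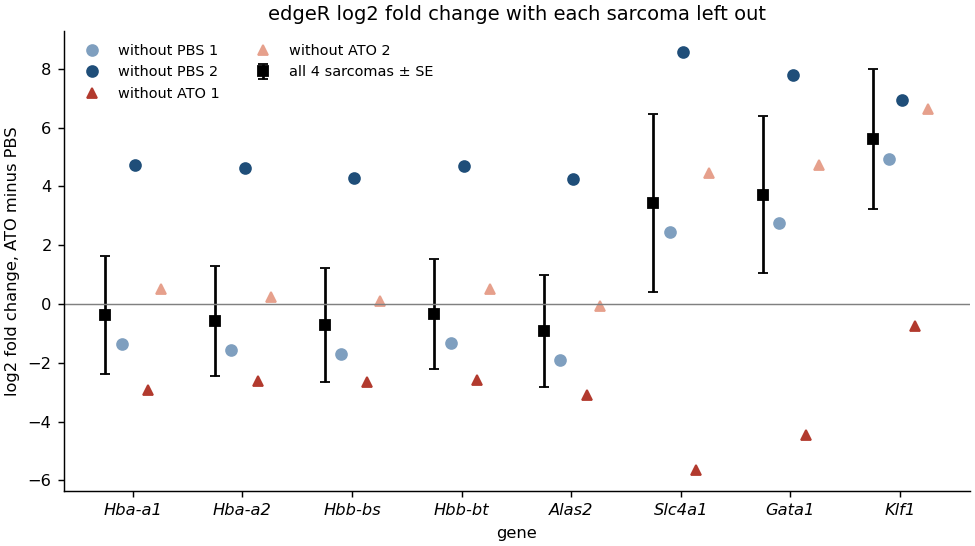
edgeR log2 fold change (ATO minus PBS) of the 8 genes, black squares with SE bars for all 4 sarcomas and coloured symbols with 1 sarcoma left out. Without PBS 2 the points reach 4.27 to 8.57, and without ATO 1 they fall to between -0.76 and -5.64, on the other side of 0.

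Other erythroid genes are described by lists, chosen with earlier results of these data known. Among genes of the red cell membrane and skeleton, 14 of the 15 tested had their highest TMM-normalized CPM in ATO 1, where 23.9% of all tested genes did, and 13 of 15 had their highest FPKM there. Rhag, of the Rh complex, had 0.12, 0.64, 50.52 and 0 FPKM in PBS 1, PBS 2, ATO 1 and ATO 2, an order like that of Slc4a1. Epb41, the protein 4.1 gene, had similar levels of 27.41 FPKM in PBS 2 and 25.68 in ATO 1, against 5.09 in PBS 1 and 5.32 in ATO 2, and Gypc ranged from 10.88 FPKM in PBS 1 to 41.09 in ATO 1. Of the 15, 4 had an unadjusted p under 0.05, all higher in ATO, against 8.51% of all genes in either direction, and 0 passed the adjusted threshold.

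Heme synthesis and iron supply genes were highest in ATO 1 for 11 of 14. Tfrc, the transferrin receptor that brings iron into erythroblasts and many dividing cells, had 16.1 FPKM in PBS 1, 5.14 in PBS 2, 106.28 in ATO 1 and 7.88 in ATO 2. Urod, an enzyme of heme synthesis, had 14.74, 12.65, 36.27 and 18.67 FPKM in the same order. PBS 2, richest in Alas2, was thus no higher than PBS 1 in both genes. Slc25a37, the mitochondrial iron importer of erythroblasts, was higher in PBS 2 than in PBS 1, with 10.87, 35.12, 100.34 and 18.39 FPKM. All 14 fitted changes pointed higher in ATO, against 49.2% of all genes. Of the 14, 4 had an unadjusted p under 0.05 (Alad, Uros, Urod and Abcb10), against 8.51% of all genes, and 0 an adjusted one.

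Erythroid regulators were highest in ATO 1 for 8 of 12 and in PBS 2 for 3. Nfe2, which activates globin genes, had 0.69 FPKM in PBS 1, 14.17 in PBS 2, 25.51 in ATO 1 and 1.62 in ATO 2. Lmo2, a partner of GATA1, had 10.94, 43.03, 33.61 and 16.4 FPKM, and Kit, the stem cell factor receptor of early erythroid and mast cells, 2.13, 23.15, 11.41 and 8.63. Ldb1, the adaptor that many cells express, ranged only from 18.87 FPKM in ATO 2 to 43 in PBS 1. Of the 12 genes 2 (Sox6 and Myb) had an unadjusted p under 0.05, both higher in ATO, against 8.51% of all genes in either direction.

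Genes of red cell maturation and enzymes were split between ATO 1 and PBS 2, with 9 of 13 highest in ATO 1 and 3 in PBS 2. Car2, a carbonic anhydrase, had 7.68 FPKM in PBS 1, 22.58 in PBS 2, 191.71 in ATO 1 and 8.14 in ATO 2. Bnip3l, needed to clear mitochondria from reticulocytes, had 27.63, 91.49, 60.73 and 35.03 FPKM and so was highest in PBS 2, like the globins. Prdx2 and Aqp1 are also expressed by other cells. Prdx2 ranged from 48.99 to 115.5 FPKM, and Aqp1 had 33.5 FPKM in PBS 1, 15.59 in PBS 2, 100.8 in ATO 1 and 105.54 in ATO 2. Of the 13 tested, 1 (Aqp1) had an unadjusted p under 0.05, against 8.51% of all genes in either direction. Aqp1 was higher in both ATO sarcomas than in both PBS sarcomas, which held for 19.7% of all genes.

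**Figure D4:**
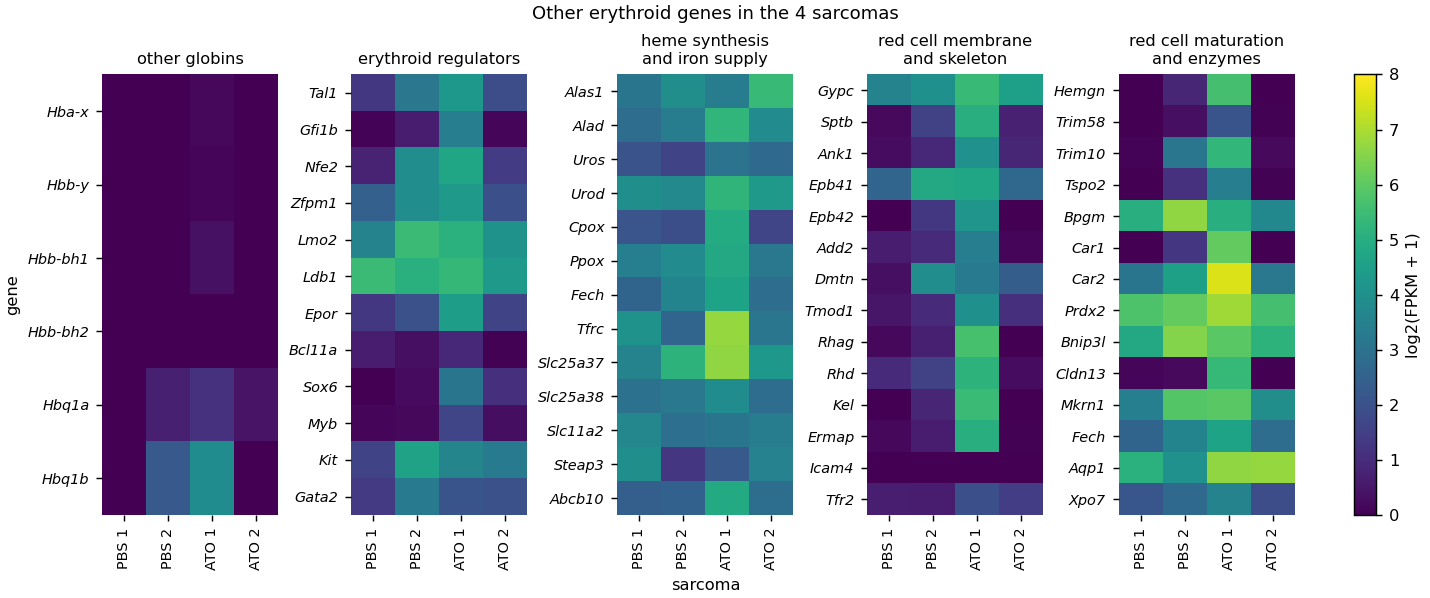
Levels of 5 lists of erythroid genes in the 4 sarcomas, as log2(FPKM + 1) from 0 (dark) to 8 (bright), with 1 row per gene and 1 column per sarcoma. Of the tested genes drawn, the ATO 1 column is brightest for 11 of 13 membrane genes and 10 of 13 heme and iron genes, while Bpgm and Bnip3l are brightest in PBS 2.

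The genes whose profile lay nearest to the adult globins were found by the Euclidean distance between centred log2(TMM-normalized CPM + 1) profiles over the 4 sarcomas. Among the 10 nearest were Alox12 (1.15), Ifitm6 (1.16), Ppbp (1.17) and Cd177 (1.21). Further ones were Peg3, Ltf, F5, Tent5c and Tubb1, at distances from 1.22 to 1.47. The platelet gene Ppbp and the neutrophil genes Cd177 and Ltf stand in that list, so it is not made of red cell genes alone.

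Among the 10 nearest to the mean profile of Alas2, Slc4a1, Gata1 and Klf1 were Trim10 (0.413), Ctse (0.615) and Epb42 (0.648), the protein 4.2 gene of the red cell membrane. Apol11b, Camp, Tspan33, Hoxa9, Hoxc10 and Hoxa10 followed, at distances from 0.738 to 0.917. Within the set itself, the globins lay 0.126 to 0.491 apart and Alas2 lay 0.302 to 0.492 from them. Slc4a1, Gata1 and Klf1 lay 3.32 to 4.58 from the globins and Gata1 lay 1.34 from Klf1, while Slc4a1 lay 3.38 from Gata1 and 4.5 from Klf1, against 4.1 to 4.58 from the globins. The 1 added to each CPM shrinks differences at low levels, and Gata1 and Klf1 lay below 1 CPM in PBS 1 and ATO 2. In FPKM Slc4a1 and Gata1 had the same order, ATO 1, PBS 2, PBS 1 and ATO 2. ATO 1 exceeded PBS 2 by 10 times for Slc4a1 and 12.3 times for Gata1. With 4 sarcomas the distances are a description without a test.

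Among markers of other cell types, the platelet and granulocyte sums ranked the sarcomas as the globins did. The 11 megakaryocyte and platelet genes were all highest in PBS 2, with a summed level of 125 FPKM in PBS 1, 575 in PBS 2, 341 in ATO 1 and 145 in ATO 2, the order of the globins. Their Pf4, the platelet factor gene, ranged from 116.02 to 183.06 FPKM, while Ppbp had 5.34, 252.73, 161.16 and 7.02 FPKM. Granulocyte genes summed to 194, 6490, 2900 and 940 FPKM, and the neutrophil gene S100a9 had 78.76, 3320.68, 1019.13 and 561.54 FPKM. PBS 2 and ATO 1 were thus higher than the other sarcomas in both lists, as for the globins.

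Granulocyte genes also differed between ATO 1 and PBS 2, with 8 of 14 highest in ATO 1 and 6 in PBS 2 by TMM-normalized CPM, and 7 in each by FPKM. Retnlg, of mature neutrophils, had 11.01, 686.01, 84.25 and 31.61 FPKM, and Ngp, of granulocyte precursors, had 6.65, 238.78, 501.09 and 4.56. Elane and Mpo, the elastase and peroxidase genes of early granulocyte precursors, named after their values were seen, had 68.2 and 48.77 FPKM in ATO 1 and at most 3.4 in the others. Ngp, Elane and Mpo, like Gata1, Klf1 and Slc4a1, had their highest level in ATO 1.

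Genes of bone, muscle and vessels also differed between the sarcomas. All 7 osteoblast genes were highest in ATO 1, with summed levels of 577, 112, 2340 and 875 FPKM. Most of each sum came from Spp1, with 563.95, 105.41, 1846.72 and 869.65 FPKM. Ibsp had 0.3, 0.35, 290.95 and 0.29 FPKM, and Runx2 had 10.19, 2.92, 13.12 and 1.01. All 8 skeletal muscle genes were also highest in ATO 1, with 9.2, 135, 13300 and 993 FPKM summed. Endothelial genes were all 8 highest in PBS 2, with 140, 1460, 123 and 206 FPKM. Genes of B cell precursors stayed low, at 7.77, 16, 12.4 and 13.9 FPKM summed over 11 genes, with Rag2 at 0 counts in all sarcomas and Igll1, Rag1 and Dntt at 6 counts or fewer.

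Macrophage genes of the red pulp and erythroblast islands summed to 248, 340, 312 and 528 FPKM, with 6 of 9 highest in ATO 1 and 3 in ATO 2. Hmox1 alone had 117.2, 279.58, 88.09 and 408.95 FPKM, so the sums of PBS 2 and ATO 2 rest largely on that gene. The mesenchymal genes that a sarcoma is known for summed to 5390, 1750, 4090 and 1330 FPKM. The part of marrow, spleen, blood or other tissue in the erythroid levels was not tested. Slc4a1, Gata1 and Klf1 were high in 1 of the 2 ATO sarcomas, so the tissue content of that sarcoma and the treatment cannot be told apart for them.

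**Figure D5:**
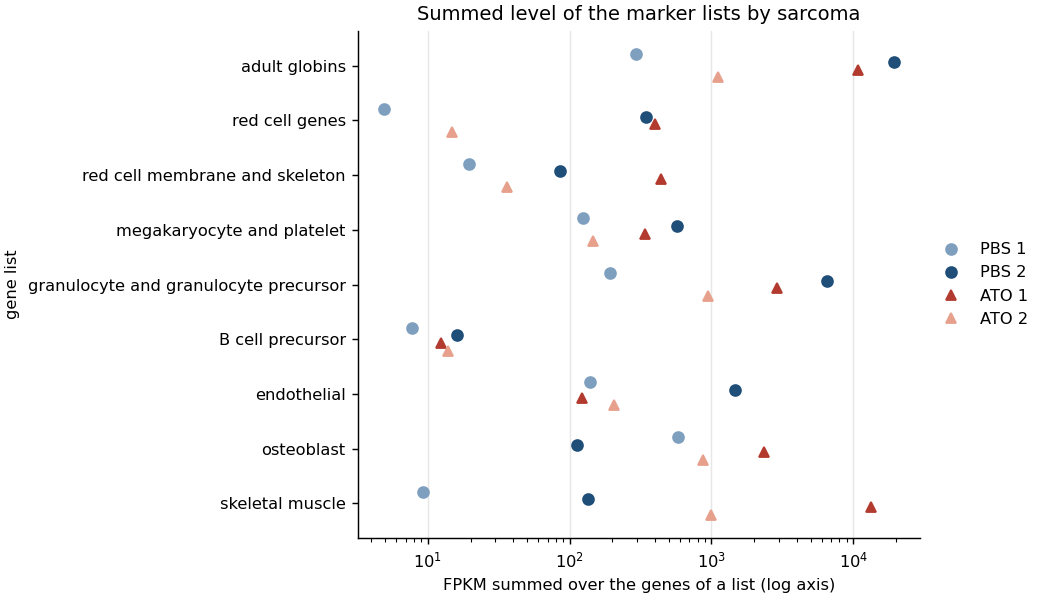
Summed FPKM (log axis) of the adult globins, the red cell genes and 7 marker lists in each sarcoma, circles for PBS and triangles for ATO. Platelet (575) and endothelial (1460) sums are highest in PBS 2, like the globins, although the endothelial sum is lowest in ATO 1 (123). Osteoblast (2340, mostly Spp1) and skeletal muscle (13300) sums are highest in ATO 1.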

How the data were processed

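RNA-seq of 4 mouse sarcomas, 2 from ATO-treated W/+ mice and 2 from untreated W/+ mice (PBS in the labels), was grouped by the treatment in the labels. The authors trimmed reads, used HISAT2 for alignment and HTSeq for counting, and deposited the raw counts per gene, not normalized. The submitters' processing notes name FastQC 0.10.1, cutadapt 1.9.1 and HISAT2 2.0.1. The authors also deposited FPKM, which equalled the count divided by exon length and total count. The methods name GRCm38, but the deposited positions of 0 of 8 genes equal those of GENCODE M21, so GENCODE positions are printed, matched by identifier. The labels name TRIzol, a SMARTER kit and a growth protocol for cultured cells, where the study describes a spin column and TruSeq for tissue.

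The main test was the quasi-likelihood F-test of edgeR 4.0.16 (R 4.3.3) after filterByExpr, with Benjamini-Hochberg adjustment over 17188 genes. Its TMM factors were 1.09, 1.11, 1.01 and 0.822 for PBS 1, PBS 2, ATO 1 and ATO 2. Between any 2 sarcomas at most 19 genes over 100 counts had equal counts. Also run were DESeq2 1.42.0, edgeR with DESeq2 size factors, edgeR without the filter, globins left out of the library sizes, limma 3.58.1 on log2(FPKM + 1) and log2(FPKM + 0.1), a replicate block and each sarcoma left out. The code was tested on simulated counts, with a log2 change of 3 given to some genes. At a dispersion (spread between samples) of 0.05 the main test recovered 196 of 196 of them. At the trended dispersion of the sarcomas it recovered 35 of 192, so a change of that size can go uncalled. Python 3.11.15 was used for the rest (scipy 1.17.1 for intervals, pandas 2.3.3 and numpy 2.4.6 for tables, matplotlib 3.10.9 for figures).

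The genes and lists were chosen with earlier results of these data known. Values were given for the 8 genes, for up to 4 genes of an erythroid, platelet or granulocyte list with the highest mean FPKM, and for the 10 genes nearest to each mean profile. The genes named beyond these were chosen after their values were seen. Some genes that these rules name are not reported here, although counts and sums over a list include them.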

Additional observations from a re-analysis of the deposited data

How the results depend on the processing

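The count of genes past an adjusted p of 0.05 was 0 in edgeR, which tested 17188 genes. It was 753 in DESeq2 (594 higher in ATO) and 541 without the filter on low counts (454 higher). Both of these fits gave a p-value to 30859 genes. In the other alternatives that kept all 4 sarcomas the count was 0. An unadjusted p under 0.05 held for 1463 of 17188 genes in edgeR, 2460 of 30859 in DESeq2 and 2992 of 30859 without the filter. The number of the 8 genes higher in ATO, 3 in edgeR, was 8 in limma on log2(FPKM + 1), 8 on log2(FPKM + 0.1) and 8 with the replicate block, and ranged from 0 to 8 with 1 sarcoma left out. Their median ranged from -2.79 to 4.71 on leaving out 1 sarcoma. In limma on log2(FPKM + 1) the log2 fold changes turned to 0.58 for Hba-a1, 0.6 for Hba-a2, 0.46 for Hbb-bs, 0.69 for Hbb-bt and 0.16 for Alas2, and on log2(FPKM + 0.1) to 0.58, 0.65, 0.46, 0.71 and 0.24, where the median of all genes was -0.183 and -0.265. With the replicate block they turned to 0.85, 0.91, 0.73, 0.98 and 0.52. The sources name no pairing of same-numbered sarcomas. Their deviations from the group means had a correlation of 0 over 17188 genes, which with 2 sarcomas per group cannot show whether the numbers pair them. The cause of these turns was not tested. Leaving out 1 sarcoma gave log2 fold changes from -2.92 to 4.73 for Hba-a1, -2.63 to 4.64 for Hba-a2, -2.66 to 4.3 for Hbb-bs, -2.57 to 4.68 for Hbb-bt, -3.08 to 4.27 for Alas2, -5.64 to 8.57 for Slc4a1, -4.45 to 7.8 for Gata1 and -0.76 to 6.95 for Klf1, where the sarcoma left alone in its group was assumed to vary like the other group. Highest values came without PBS 2 and lowest without ATO 1. Depth limits Gata1 and Klf1 in PBS 1 and ATO 2, at 3 counts or fewer.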
